A study of Rattus norvegicus with 5 samples.

Results

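AMPA and kainate receptors are the glutamate-gated channels that carry most fast excitatory transmission in the brain, and their subunits are encoded by 9 genes, Gria1 to Gria4 for AMPA receptors and Grik1 to Grik5 for kainate receptors. Every probe set with exactly 1 gene symbol in the platform annotation, equal to one of these names, was taken. This gave 16 of the 8799 probe sets of the array, 10 for the Gria and 6 for the Grik genes, and each of the 9 genes, of 4736 named on the array, had at least 1. A probe set is a group of short oligonucleotides read together as 1 value. The samples were total RNA from the hippocampus of rats labelled P5, 1 array each. Of these, 2 came from a control diet group and 2 from a group exposed to alcohol as fetuses. The last came from an isocaloric diet group, which serves as a feeding control. The sample labels do not say whether the diets were fed to the mothers. The labels name no strain, dose or route of alcohol, and do not say whether a sample is 1 animal or a pool, so p-values measure only the spread between these samples, which may in part be technical.

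AMPA receptors are assemblies of Gria subunits, and which subunits are present sets their conductance and calcium entry. The Gria2 subunit, once its transcript is edited by an adenosine deaminase, keeps calcium out of the channel, so the share of Gria2 is a standard measure in the developing hippocampus, where receptors without it are common early in life. Kainate receptors are built from Grik1, Grik2 and Grik3, which form channels by themselves, joined by the high-affinity subunits Grik4 and Grik5, which do not. In the hippocampus kainate receptors lie on both sides of the synapse and are known for their place at mossy fibre synapses of the CA3 field.

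The median intensity lay between 49.0 and 55.7 over the 5 arrays. For beta-actin, the signal near the 3' end divided by that near the 5' end, a measure of RNA integrity, gave 1.32 and 1.34 under control diet, 1.18 and 1.26 under fetal alcohol and 1.12 under the isocaloric diet. Of 6 general neuron markers, 4 had a probe set and all 4 passed the intensity filter, with a summed intensity of 1406 and 1455 under control diet, 1431 and 1804 under fetal alcohol and 1294 under the isocaloric diet. Of 7 excitatory neuron markers 4 had a probe set. Slc17a7, the main vesicular glutamate transporter of hippocampal principal cells, measured 3.15 to 5.72 on the 5 arrays, near the bottom of the scale. The transcription factors Neurod1 (241 and 251 on control diet, 109 and 220 on fetal alcohol, 126 on isocaloric) and Neurod2 (185 and 150, 83.8 and 110, 88.0) gave clear signal. The 4 summed to 470 and 419 under control diet, 227 and 371 under fetal alcohol and 228 under the isocaloric diet. Choroid plexus markers (5 of 6 with a probe set) summed to 5330 to 5676 on control diet, 273 to 1174 on fetal alcohol and 6068 on isocaloric, and meningeal markers (6 of 6) to 1666 to 2416, 867 to 1702 and 1351. Inhibitory neuron markers (7 of 7) summed to 3198 to 3488, 3324 to 3454 and 3096, astrocyte markers (7 of 8) to 4838 to 5049, 4546 to 4752 and 4865. Oligodendrocyte markers (5 of 8) summed to 556 to 561, 532 to 650 and 546, and microglia markers (4 of 5) to 125 to 126, 123 to 140 and 122.

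The receptor subunits were of moderate or low signal. Intensities became log2(intensity + 10.6), and probe sets whose mean over the 5 arrays fell under the 40th percentile of all, an intensity of about 33.4, were not tested. Of the 16 probe sets 11 passed, covering 8 of the 9 genes. They stood between the 41.4th percentile (Grik2) and the 88th (Grik5), and their median percentile was 57.2. Gria3 was the gene with no tested probe set. Levels of different probe sets are not comparable with one another, because each hybridises with its own strength.

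**Figure D1:**
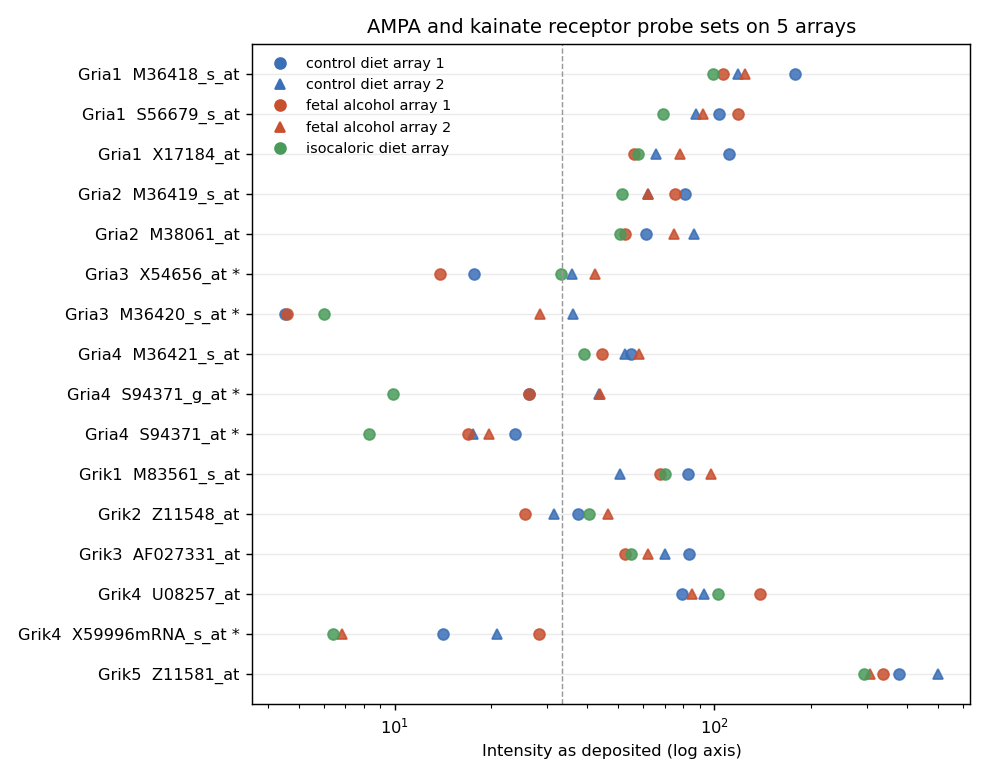
Deposited intensity (log axis) of the 16 probe sets on each of the 5 arrays; colours give the group, circles array 1 and triangles array 2, the dashed line the intensity of about 33.4 at the filter, and asterisks the 5 probe sets not tested. Control diet and fetal alcohol points overlap for all probe sets but those of Grik3 and Grik5, and the isocaloric point is the lowest for 9 of the 16. Among the 11 tested it is the lowest for 6, against 21.9% of all tested probe sets. The 2 groups do not overlap in 34.5% of all tested probe sets.

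Between fetal alcohol and control diet, the comparison that asks what alcohol exposure before birth leaves in the hippocampus, no subunit passed the test. The log2 differences of the 11 tested probe sets ran from -0.42 (Grik5) to 0.31 (Grik4), 7 below 0 and 4 above (49.5% and 50.5% of all tested probe sets), with a median of -0.063 against 0.0049 over all 5244 probe sets tested. The limma adjusted p-values, over all 5244, lay between 0.946 and 0.997. At an unadjusted p under 0.05 limma found 0 of the 11. Over all tested probe sets 0% had an adjusted p under 0.05, and 5.61% (294) had an unadjusted p under 0.05. The 95% intervals of the 11 reached as far as -1.005 and 0.95 on the log2 scale, so changes of nearly 2-fold either way in single subunits lay within them. In 9 of the 11 the difference between the groups was smaller than the larger gap between 2 arrays of one group, as in 78.4% of all tested probe sets.

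Gria1, which encodes the subunit most tied to activity-dependent insertion of AMPA receptors, was read by 3 probe sets. The brightest, M36418_s_at, measured 178 and 119 under control diet, 107 and 125 under fetal alcohol and 99.3 under the isocaloric diet. X17184_at measured 112 and 65.8, then 55.9 and 78.2, then 57.6. On both, control diet array 1 stood above the 4 other arrays and control diet array 2 lay within the range of the fetal alcohol arrays. The log2 difference between fetal alcohol and control diet was -0.31 ± 0.26 (SE) at M36418_s_at, where it ran from -0.58 to -0.035 with 1 array left out, and -0.33 ± 0.29 at X17184_at. The third, S56679_s_at, measured 103 and 87.5, then 118 and 92.1, then 69.1, a difference of 0.12 ± 0.24. The highest array was thus a control diet array at 2 of the Gria1 probe sets and a fetal alcohol array at 1, and the sign of the difference was not shared. Without control diet array 1 the difference at X17184_at was 0.0079.

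Gria2, the subunit that controls calcium entry, was read by 2 probe sets of nearly equal signal. M36419_s_at measured 81.2 and 62.1 under control diet, 75.2 and 61.9 under fetal alcohol and 51.5 under the isocaloric diet. M38061_at measured 61.2 and 86.6, 52.6 and 74.9, and 50.6. At the first, array 1 was the higher of both groups, and at the second, array 2 was. The groups overlapped at both, with log2 differences of -0.051 ± 0.24 (95% interval -0.61 to 0.51) and -0.18 ± 0.27 (-0.80 to 0.43). AMPA receptor genes are spliced into alternative forms, and the sources used here do not give the stretch of transcript that each probe set reads.

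Gria3 and Gria4 encode the remaining AMPA receptor subunits, Gria4 being prominent in the young hippocampus and later in interneurons. M36421_s_at, the tested probe set of Gria4, measured 54.8 and 52.7 under control diet, 44.5 and 58.2 under fetal alcohol and 39.1 under the isocaloric diet. The fetal alcohol values lay on both sides of the control diet values, and the log2 difference was -0.063 ± 0.24. Both further Gria4 probe sets were under the filter. S94371_g_at measured 26.3 and 43.6, 26.4 and 43.9, and 9.84, which is nearly the same pair of values in both groups. S94371_at measured 23.7 and 17.6, 16.9 and 19.7, and 8.29. On both, the isocaloric array had the lowest value and lay under the offset. Gria3 was dim and varied most. M36420_s_at measured 4.53 and 36.2 under control diet, 4.61 and 28.4 under fetal alcohol and 6.0 under the isocaloric diet. X54656_at measured 17.7 and 35.8, 13.9 and 42.2, and 33.1. At both Gria3 probe sets array 2 of either group read well above array 1. At M36420_s_at the gap was 1.63 under control diet and 1.36 under fetal alcohol on the log2 scale. The group means there differed by -0.13. Its array 1 values, 4.53 and 4.61, lay under the offset. Array 2 was the higher in both groups at 4 of the 16 probe sets. Among those past the filter it was 1 of 11, against 1209 of all 5244 tested. Array 1 was the higher in both at 2 of the 16 and 2 of the 11, against 1148 of all 5244 tested.

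Grik5, one of the high-affinity kainate receptor subunits, had the brightest probe set of the 16 and the largest difference of the 11 tested. It measured 378 and 500 under control diet, 337 and 306 under fetal alcohol and 295 under the isocaloric diet. Both fetal alcohol arrays lay below both control diet arrays, and the isocaloric array was lower still. The log2 difference between fetal alcohol and control diet was -0.42 ± 0.25 (95% interval -0.99 to 0.14, limma adjusted p = 0.946) and ran from -0.62 to -0.23 when 1 array was left out. Grik3, a channel-forming kainate subunit of low glutamate affinity, measured 83.2 and 70.0, 52.4 and 62.1, and 55.0, and here too the groups did not overlap. Its log2 difference was -0.36 ± 0.23 (-0.90 to 0.18, adjusted p = 0.961). These were the only 2 of the 11 tested probe sets whose groups did not overlap, both with fetal alcohol lower. Over all tested probe sets the groups did not overlap in 34.5%, with fetal alcohol lower in 17.7% and higher in 16.8%, so 2 of 11 is no more than the background. Of the 4 excitatory neuron markers, Neurod1 and Neurod2 were also lower on both fetal alcohol arrays than on the control diet arrays, while Slc17a7 and Camk2a, both under the filter, overlapped. Of the 4 general neuron markers none was lower on both and 1, Nefl, was higher, with a difference of 0.44. Their part in the Grik values was not tested. In these tissue samples, fewer cells of a type and less RNA per cell cannot be told apart.

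The other kainate receptor subunits had overlapping groups. Grik1, a channel-forming subunit linked to hippocampal interneurons, measured 82.5 and 50.8 under control diet, 67.8 and 97.6 under fetal alcohol and 70.1 under the isocaloric diet, a log2 difference of 0.28 ± 0.29 between fetal alcohol and control diet. Grik2, the main channel-forming subunit of mossy fibre synapses, measured 37.5 and 31.5, 25.6 and 46.5, and 40.5, a difference of 0.015 ± 0.29. Its fetal alcohol arrays were the lowest and the highest of the 5. Grik4, the partner of Grik2 in CA3 neurons, measured 79.5 and 92.8, 139 and 84.9, and 103 at U08257_at. Fetal alcohol array 1 alone stood high here, and the log2 difference of 0.31 ± 0.27 became -0.015 without it. The second Grik4 probe set, under the filter, measured 14.2 and 20.8, 28.3 and 6.86, and 6.40, so that fetal alcohol array 1 was again the highest while fetal alcohol array 2 lay below both control diet arrays.

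**Figure D2:**
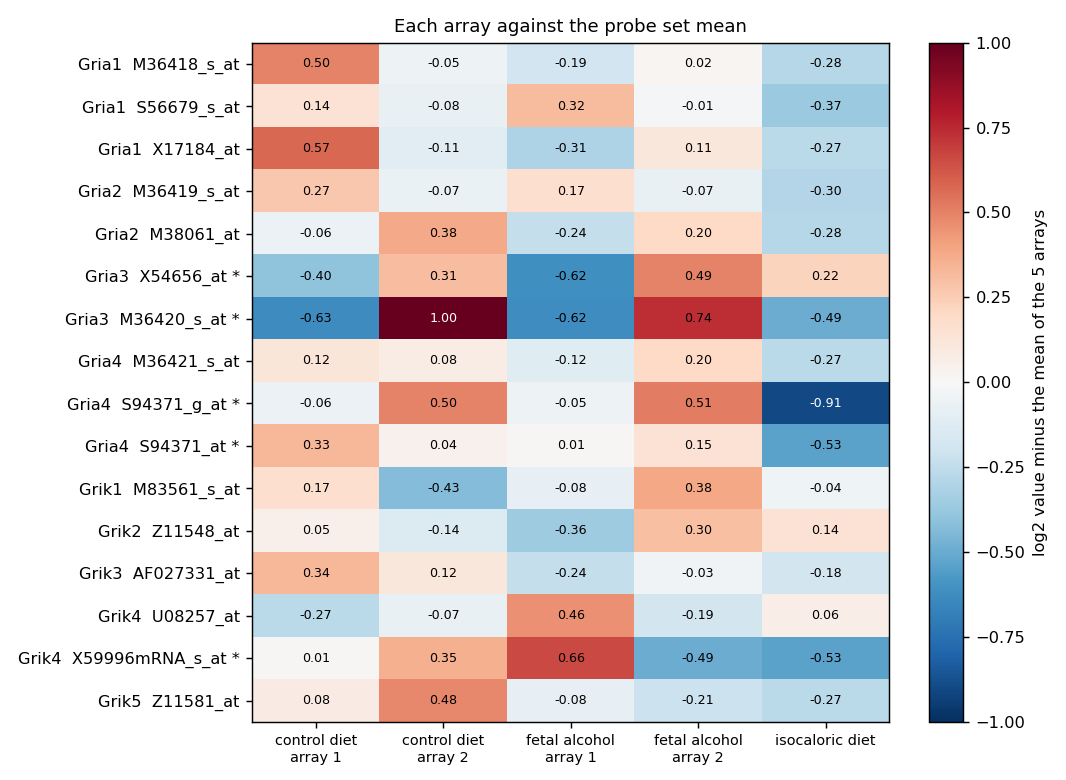
Log2 value of each probe set on each array minus its mean over the 5 arrays (colour and printed number), with asterisks for the 5 probe sets not tested. The isocaloric column is below 0 for all Gria1, Gria2 and Gria4 probe sets, and the Gria3 rows alternate between array 1 and array 2 of the control diet and fetal alcohol groups.

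Isocaloric was next set against control diet, 1 array against 2, with no replicate of the feeding control. All 6 tested Gria probe sets, of Gria1, Gria2 and Gria4, lay below both control diet arrays on this array, as did 37.5% of all tested probe sets. Of the dim Gria3 probe sets, X54656_at was 0.27 above the control diet mean on it and M36420_s_at lay between the control diet arrays. The isocaloric array was the lowest of the 5 at 5 of these 6, against 21.9% of all tested probe sets. The log2 differences were alike, -0.51 ± 0.32 and -0.50 ± 0.36 at M36418_s_at and X17184_at and -0.41 ± 0.29 at S56679_s_at of Gria1, -0.40 ± 0.30 and -0.45 ± 0.33 for Gria2 and -0.37 ± 0.30 for Gria4. Their median was -0.43 against 0.016 over all tested probe sets, of which 48.6% were below 0 and 51.4% above. The 6 values come from 1 isocaloric array and the same control arrays, and 3 of them from 1 gene, so they are not independent.

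None of these differences passed in limma. The adjusted p-values of the Gria probe sets lay between 0.853 and 0.864, with 0 of the 11 receptor probe sets at an unadjusted p under 0.05. Of all tested probe sets 0% had an adjusted p under 0.05 and 6.81% (357) an unadjusted p under 0.05. The 6 differences stayed below 0 when either control diet array was left out, but at X17184_at the value ran from -0.84 to -0.16. The beta-actin ratio was lower on the isocaloric array than on the control diet arrays, where a lower ratio means more intact RNA. The summed excitatory neuron markers were also lower on the isocaloric array than on the control diet arrays. So were the sums of general neuron, inhibitory neuron, oligodendrocyte, microglia and meningeal markers. Single markers past the filter were mixed. Below and above both control diet arrays lay 1 and 1 of 4 general neuron and 1 and 1 of 2 microglia markers. For inhibitory neuron markers it was 3 and 1 of 7, for oligodendrocyte 3 and 1 of 5 and for meningeal 4 and 1 of 6. For excitatory neuron markers it was 2 and 0 of 2. The astrocyte sum lay between the control diet arrays and the choroid plexus sum above them. Of the excitatory neuron markers, Slc17a7 lay between the control diet arrays. The part of these in the low Gria values was not tested. Without a filter, the dim Gria4 probe sets gave -1.13 at S94371_g_at and -0.72 at S94371_at. In limma their unadjusted p-values were 0.0301 and 0.029, with an adjusted p of 0.72. They were the only 2 of the 16 receptor probe sets with an unadjusted p under 0.05 in that fit, against 569 of all 8740. Both differences rest on isocaloric values, 9.84 and 8.29, that lay under the offset.

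Kainate receptor subunits did not share 1 direction on the isocaloric array. Grik5, with -0.54 ± 0.30 (adjusted p = 0.846), and Grik3, with -0.41 ± 0.29, lay below both control diet arrays. Grik2 with 0.18 ± 0.35 and Grik4 with 0.23 ± 0.34 lay above both, and Grik1 with 0.093 ± 0.35 lay between them. Of all tested probe sets 37.5% lay below both control diet arrays and 38.3% above both. The second Grik4 probe set, under the filter, went the other way, with -0.71 and its lowest value on the isocaloric array. The median of the 5 tested Grik probe sets was 0.093. None passed the test.

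Fetal alcohol was also set against the feeding control. It shares the fetal alcohol arrays with the first comparison and the isocaloric array with the second, so its values restate them from the other side. The 6 Gria probe sets had log2 differences between 0.17 (X17184_at) and 0.53 (S56679_s_at, 0.53 ± 0.29), all above 0, as were 49.7% of all tested probe sets, with 50.3% below. Gria2 had 0.35 ± 0.30 and 0.26 ± 0.33, and Gria4 0.31 ± 0.30. The Grik probe sets ranged from -0.17 ± 0.35 for Grik2 to 0.19 ± 0.35 for Grik1, with 0.12 ± 0.30 for Grik5, 0.073 ± 0.34 for Grik4 and 0.045 ± 0.29 for Grik3. Every one of the 11 had a limma adjusted p of 0.998, and 0 had an unadjusted p under 0.05, against 0% and 4.21% (221) of all tested probe sets. For the tested Gria genes the order of group means was thus control diet highest and isocaloric lowest at 5 of 6 probe sets, with S56679_s_at highest on fetal alcohol. No difference between neighbours in this order passed the test. The share of all tested probe sets with this order was not counted, so the 5 of 6 has no background beside it. Without a filter, the dim S94371_g_at of Gria4 gave 1.14 between fetal alcohol and isocaloric diet. In limma its unadjusted p was 0.0293 and its adjusted p 0.984, and its isocaloric value of 9.84 lay under the offset. It was the only 1 of the 16 with an unadjusted p under 0.05 in that fit, against 426 of all 8740.

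**Figure D3:**
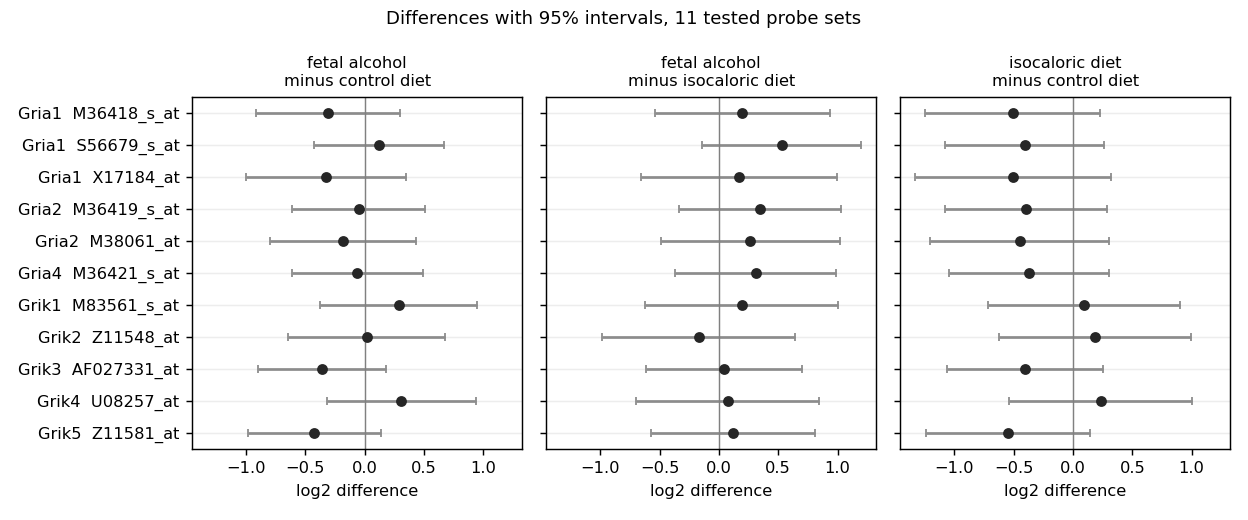
Log2 differences of the 11 tested probe sets in the 3 comparisons, with 95% intervals from limma. Every interval includes 0; in the isocaloric minus control diet panel the 6 Gria points lie between -0.51 and -0.37.

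Subunit balance was followed within each array, as the log2 value of one subunit minus that of others, with the brightest tested probe set for each gene. Such a difference shows unequal change between arrays and not which subunit is more abundant. Gria2 minus the mean of Gria1 and Gria4 was -0.28 and -0.32 under control diet, 0.094 and -0.41 under fetal alcohol and -0.25 under the isocaloric diet. The fetal alcohol arrays lay on both sides of all others, so the group means of -0.30 ± 0.027 (SD, n = 2) and -0.16 ± 0.36 (SD, n = 2) overlapped. Their difference was 0.14 with an exact 2-sided permutation p of 1, where 2 arrays against 2 cannot go below 0.333. With the mean over all tested probe sets of a gene in place of the brightest it was 0.00027, and with the dim probe sets and Gria3 included 0.077. The isocaloric array lay 0.044 above the control diet mean.

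The mean of the 3 tested Gria genes minus the mean of the 5 Grik genes was -0.050 and -0.28 under control diet, -0.26 and -0.28 under fetal alcohol and -0.50 under the isocaloric diet. Control diet array 1 was the highest, and control diet array 2 matched the fetal alcohol arrays. The difference between fetal alcohol and control diet was -0.11 (exact permutation p = 1, n = 2 per group), and 0.0082 without control diet array 1. The isocaloric array was the lowest of the 5 and stood 0.34 below the control diet mean, more than the gap of 0.23 between the control diet arrays. This difference was not tested. It leaves out Gria3, which had no tested probe set. On the isocaloric array the brighter Gria3 probe set lay 0.27 above the control diet mean and the dimmer 0.68 below it.

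**Figure D4:**
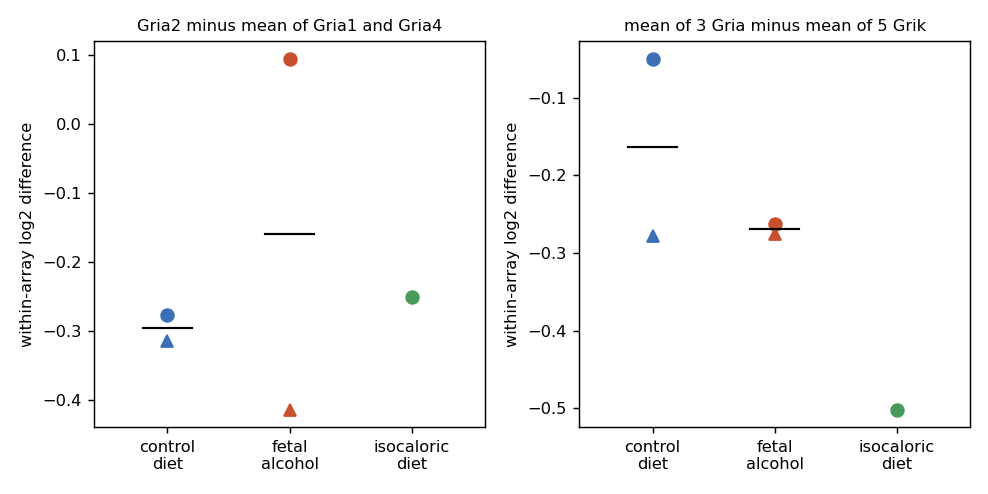
Within-array log2 differences between subunits on the 5 arrays (circles array 1, triangles array 2, bars the mean of 2 arrays); left, Gria2 minus the mean of Gria1 and Gria4, right, the mean of 3 Gria genes minus that of 5 Grik genes. The fetal alcohol arrays spread from -0.41 to 0.094 on the left, and the isocaloric array is lowest, at -0.50, on the right.

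Proteins that bind, move, phosphorylate or edit these receptors were read from a list of 57 genes, of which 38 had a probe set and 28 passed the filter. Between fetal alcohol and control diet 18 of the 28 were higher and 10 lower (50.5% and 49.5% of all tested probe sets), with a median log2 difference of 0.086 and 0 past the adjusted threshold in limma. At an unadjusted p under 0.05 there was 1 in each direction, 2 of 28 against 5.61% of all tested probe sets. Lin7b, a small scaffold protein of synapses, measured 47.7 and 64.2 under control diet, 125 and 106 under fetal alcohol and 44.8 under the isocaloric diet, a difference of 0.93 ± 0.24 (limma adjusted p = 0.573). Shank1, a postsynaptic scaffold, measured 96.1 and 103, 73.6 and 33.0, and 46.1, a difference of -0.86 ± 0.32 (limma adjusted p = 0.789). For both genes the control diet and fetal alcohol arrays did not overlap, as for 34.5% of all tested probe sets. Nsf, an ATPase that binds Gria2, had an unadjusted p under 0.05 in limma only at its second probe set, which gave 0.66 against 0.14 at the brightest.

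Between isocaloric and control diet 9 of the 28 partner genes were higher and 19 lower (51.4% and 48.6% of all tested probe sets), with a median of -0.14, and again 0 passed in limma. The 3 of 28 with an unadjusted p under 0.05 at their brightest probe set, against 6.81% of all tested probe sets, had lower signal on the isocaloric array. Camk2b, a calmodulin-dependent kinase, gave -0.41 at its brightest probe set and -0.80 at its second, M16112_at, where the unadjusted p was also under 0.05. Grid1, a delta glutamate receptor related in sequence to AMPA and kainate subunits, measured 50.2 and 46.4 on control diet, 36.9 and 37.6 on fetal alcohol and 20.2 on isocaloric, a difference of -0.94 ± 0.29 (limma adjusted p = 0.58). Shank1 had -0.96 ± 0.39 (adjusted p = 0.683). Adarb1, the deaminase that edits the Gria2 transcript, measured 191 and 194, 120 and 162, and 114, a difference of -0.71 ± 0.30 (limma adjusted p = 0.695). Its fetal alcohol arrays also lay below both control diet arrays, as in 17.7% of all tested probe sets, with a difference of -0.44 ± 0.24 that did not pass (limma adjusted p = 0.922). The largest positive differences were those of Prkacb, a catalytic subunit of protein kinase A (0.58 ± 0.42), and Camk2d, a calmodulin-dependent kinase (0.50 ± 0.40), whose second tested probe sets gave 0.19 and -0.18.

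Between fetal alcohol and isocaloric diet, which shares arrays with both other comparisons, 20 of the 28 were higher and 8 lower (49.7% and 50.3% of all tested probe sets), with a median of 0.28. Only Lin7b, 1 of 28, had an unadjusted p under 0.05 in limma at its brightest probe set, against 4.21% of all tested. Lin7b had 1.18 ± 0.30 (limma adjusted p = 0.986). Prkacb and Ppp3r1, the regulatory subunit of calcineurin, had the lowest values of -0.33 ± 0.42 each. A second probe set gave -0.20 and -0.54. Camk2b had an unadjusted p under 0.05 in limma only at its second probe set, which gave 0.79 against 0.39 at the brightest. By role, scaffold and trafficking genes (14 tested) had medians of 0.15 for fetal alcohol minus control diet and -0.25 for isocaloric minus control diet, and kinases and phosphatases (10 tested) 0.07 and -0.048. Of 13 auxiliary subunits 1 had a probe set, Cnih2, a cornichon protein that escorts AMPA receptors, which measured between 1261 and 1437 on the 5 arrays. It differed by 0.019 between fetal alcohol and control diet. The RNA editing genes tested were Adarb1 and Adar, which had 0.01 in that comparison.

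**Figure D5:**
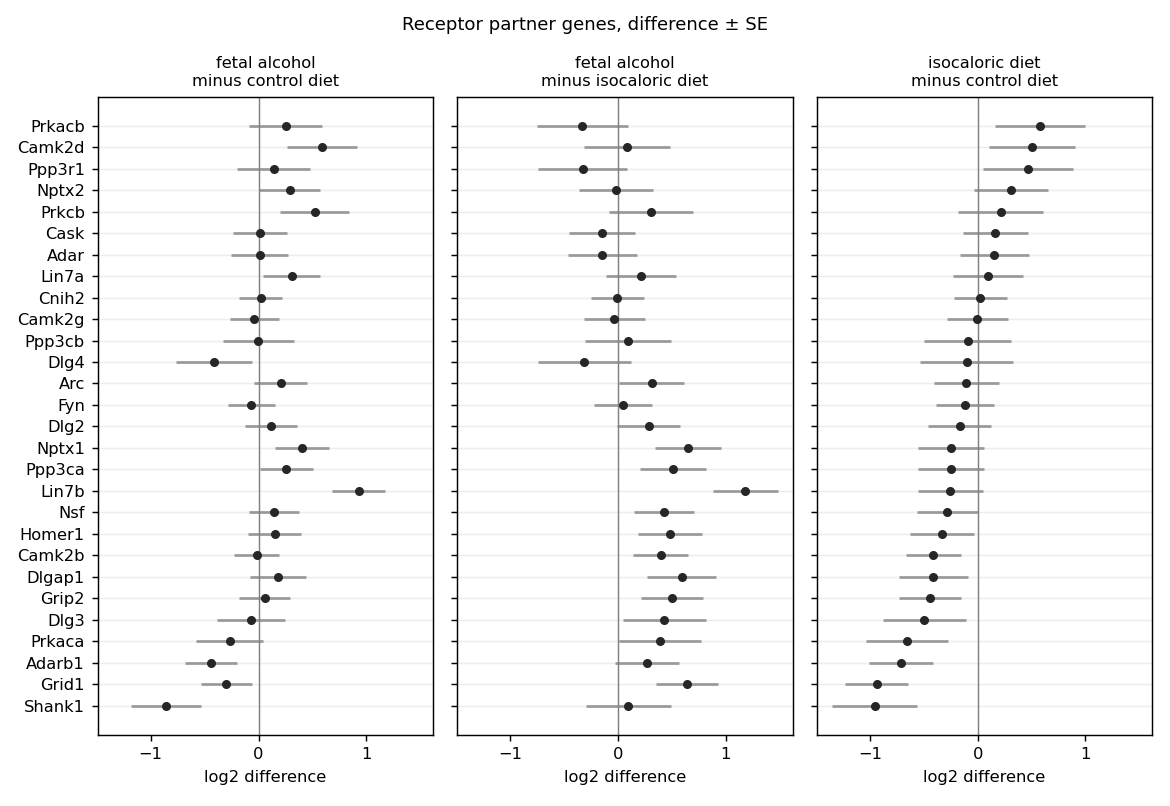
Log2 differences ± SE of the 28 tested partner genes in the 3 comparisons, 1 probe set per gene, ordered by isocaloric minus control diet. Lin7b is highest in both fetal alcohol panels (0.93 and 1.18), and Shank1 and Grid1 are lowest in the isocaloric panel (-0.96 and -0.94).

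Among the tested receptor probe sets, X17184_at of Gria1 had the widest spread over the 5 arrays, 0.88 on the log2 scale. The probe sets of other genes with the most similar pattern were those of Gabbr2, a GABA-B receptor subunit, Jtb and Rims1, a protein of the presynaptic release site. Their centred log2 values had root mean square distances of 0.068, 0.076 and 0.081 to it over 5 arrays, the smallest among 4376 candidates, so that their closeness is a result of the choice. For Gabbr2 the intensities were 158 and 99.3 under control diet, 92.0 and 111 under fetal alcohol and 92.3 under the isocaloric diet.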

How the data were processed

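Each of the 5 samples had 1 single-colour array. The authors deposited intensities on a linear scale, 1 per probe set; for the software and scaling, nothing is stated (not given in the sources used here). Their 2% trimmed means lay between 150.19 and 150.22, so they were used as deposited. Detection calls were not used here. Precision is limited by the number of arrays. The 59 control probe sets were left out. The other 8740 became log2(intensity + 10.6), the offset being the 20th percentile of all values; differences of dim probe sets are therefore understated. Gene names came from the platform annotation (7006 probe sets with 1 symbol, 308 with several, 1426 with none), updated through the gene identifier.

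The 3 comparisons were fitted together over the 5244 probe sets past the filter in limma 3.58.1 (R 4.3.3) with lmFit, eBayes and an intensity trend, 2-sided, with Benjamini-Hochberg adjustment and a threshold of 0.05; the fit was tested on simulated data. It had 2 residual and 6.30 prior degrees of freedom, and the lone isocaloric array was assumed to vary like the others. All 9 subunit genes were named with every probe set. Of the partner list, genes with an unadjusted p under 0.05 at their brightest probe set were named. In a direction with none, the 2 largest differences were named. Nsf and Camk2b, with such a p only at a second probe set, were named beyond this rule. Cnih2 and Adar were named for their roles. The brightest probe set stood for a partner or marker gene. The members and lists were chosen with earlier results of these data known.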

Additional observations from a re-analysis of the deposited data

How the results depend on the processing

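No receptor probe set and no partner gene passed the adjusted threshold under any alternative run (offsets of 5.30 and 21.2, no filter, a filter at the 60th percentile, quantile normalization, equal medians, no intensity trend, the replicate block, a crossed block chosen after seeing the data, the isocaloric array left out of the first comparison, and each other array left out). Filters, the variance model, the blocks and leaving out an array of another group cannot move a difference. Of the 220 alternative values of single receptor probe sets that differed from the reported one, the 132 under other offsets or scalings kept their direction, and of the 88 with 1 array left out 17 reversed. For fetal alcohol minus control diet the leave-one-out ranges that crossed 0 were -0.042 to 0.28 for Gria1 S56679_s_at, -0.67 to 0.0079 for Gria1 X17184_at, -0.22 to 0.12 for Gria2 M36419_s_at, -0.40 to 0.034 for Gria2 M38061_at, -0.22 to 0.097 for Gria4, -0.016 to 0.58 for Grik1, -0.31 to 0.34 for Grik2 and -0.015 to 0.63 for Grik4. For fetal alcohol minus isocaloric diet they were -0.036 to 0.38 for Gria1 X17184_at, -0.041 to 0.42 for Grik1, -0.50 to 0.16 for Grik2, -0.058 to 0.15 for Grik3 and -0.25 to 0.40 for Grik4, and for isocaloric minus control diet -0.21 to 0.39 for Grik1. With 1 array left out the balance of Gria2 against the other Gria genes ran from -0.12 to 0.39 and that of Gria against Grik genes from -0.22 to 0.0082. Over all probe sets the count past the threshold for fetal alcohol minus control diet rose from 0 to 9 with equal medians, 1 with quantile normalization and 1 with the larger offset, and ran from 0 to 25 with 1 array left out. For fetal alcohol minus isocaloric diet it became 3 with equal medians and 3 with quantile normalization and ran from 0 to 12, and for isocaloric minus control diet it ran from 0 to 13; the cause was not tested.

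The labels do not say what the replicate numbers mean, and with 2 arrays per group the 1 correlation of same-numbered deviations, -0.113, does not settle it; they were not used as pairs. With the replicate block, fitted on the control diet and fetal alcohol arrays, the count for fetal alcohol minus control diet was 8, and with the crossed pairing 21, none of them a receptor subunit. The block leaves both balance differences as they are by construction. No paired analysis was possible for the comparisons with the isocaloric array because its label carries no number.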
